A study of Mus musculus with 4 samples.

Results

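The 37 genes described here are genes of blood and lymphatic endothelium, the cells that line blood vessels and lymph vessels, as measured in ureters of mouse embryos. They were chosen by name. The probes whose gene name in the array files is on the list were taken, and the brightest probe over both channels and 4 arrays stood for the gene. The list matched 49 probes, and its 37 genes are part of 24357 named genes on the array. All 37 passed the filter on dim probes, as did 18154 genes in all. The rule used names and brightness, not ratios.

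The tested embryos were Pax2-cre/+; Trp63(dN-flox/dN-flox), called ΔNp63-cKO in the labels and cKO here, and the controls were Trp63(dN-flox/?), with no cre listed. Both genotypes were NMRI mice at E18.5 and both carried at least 1 floxed Trp63 allele. Each of 4 arrays carried the RNA of a cKO ureter sample in 1 colour and that of a control in the other, with the cKO in red on arrays 1 and 3 and in green on arrays 2 and 4. Array 2 held a male pair, and the other 3 arrays held female pairs, so sex cannot be told apart from anything else particular to array 2. Pax2-cre is active in the nephric duct, from which the ureter's epithelium descends. The sources used here do not say whether each RNA came from 1 embryo or from several. The p-values thus cover the variation among these arrays alone, which may be technical.

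Endothelial cells are held together by junction proteins, and they respond to growth factors that neighbouring cells release. VEGF ligands act on the receptors encoded by Flt1, Kdr and Flt4, and angiopoietins act on the receptor encoded by Tek. Lymphatic endothelium descends from veins under the transcription factor Prox1 and carries podoplanin, the product of Pdpn. In the late fetal ureter, vessels run through the connective tissue and muscle coat outside the epithelium.

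Median spot signals per channel lay between 460.3 and 607.3 units. Log2 ratios of cKO over control correlated between arrays at 0.53 to 0.73 across genes, which are not independent replicates. Trp63 had normalized log2 levels of 11.05, 11.85, 11.72 and 11.55 in cKO ureters and of 13.91, 13.53, 13.76 and 13.67 in control ureters on arrays 1 to 4. It was 4.52-fold lower in the cKO, and the genotypes did not overlap (limma adjusted p = 0.00207). All 16 epithelial and all 12 smooth muscle markers passed the filter. So did all 14 hepatocyte and all 8 adrenal cortex markers, so passing does not tell these tissues apart.

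Most endothelial genes were slightly higher in cKO ureters, and few differed by more than the spread between arrays allowed to call. Of the 37 genes, 3 rose (Mmrn1, Sox17 and Tal1), 1 fell (Pdpn) and 33 did not pass an adjusted p of 0.05. Over all genes tested, 2.91% rose and 5.62% fell, 8.54% in all. The median log2 ratio of the 37 genes was 0.17 ± 0.08 (SD of the medians of 4 arrays), and that of all genes tested was 0.00. The members' medians were 0.27, 0.07, 0.18 and 0.22 on arrays 1 to 4, so array 2, the only male pair, had the lowest.

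The direction was shared more widely than the calls. The mean ratio was above 0 for 34 of the 37 genes, where 50.7% of all genes were, and below 0 for Pdpn, Vegfa and Lyve1. On the separate arrays 32, 24, 31 and 32 of the 37 were above 0. For 19 genes the cKO was higher on 4 of 4 arrays, beside 14.3% of all genes, and for Pdpn and Vegfa it was lower on all 4 arrays, beside 16.3% of all genes. Flt4 is among the 34 and the 19, but it passed the filter on dim probes through the cKO alone. It was above background on 4 arrays in the cKO and on 3 in the control. At an unadjusted p of 0.05, 20 were higher and 2 were lower, where the shares of all genes were 10.8% and 12.8%. The log2 levels of the genotypes did not overlap, with the cKO higher, for 5 of the 37 (Mmrn1, Sox17, Ramp2, Mmrn2 and Angpt1), beside 3.67% of all genes, and with the cKO lower for 1 (Pdpn), beside 6.19%. The genes are not independent of each other, since each array supplied them all from the same pair of RNAs. Since the RNA came from whole ureters, fewer cells of a type and less RNA per cell cannot be told apart, and likewise for more.

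The differences were small. The middle 50% of the 37 mean ratios lay between 0.13 and 0.23, where those of all genes lay between -0.08 and 0.08. Of the 33 genes that did not pass, 30 had a 95% confidence interval within 1.5-fold in either direction, 17 had an interval above 0, 1 had an interval below 0 (Vegfa) and 15 had one that covered 0. The highest upper bound was 0.73 on the log2 scale (Cdh5) and the lowest lower bound was -0.43 (Vegfa). The plot of ratios by array shows this narrow band, with Mmrn1 and Pdpn outside it.

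**Figure D1:**
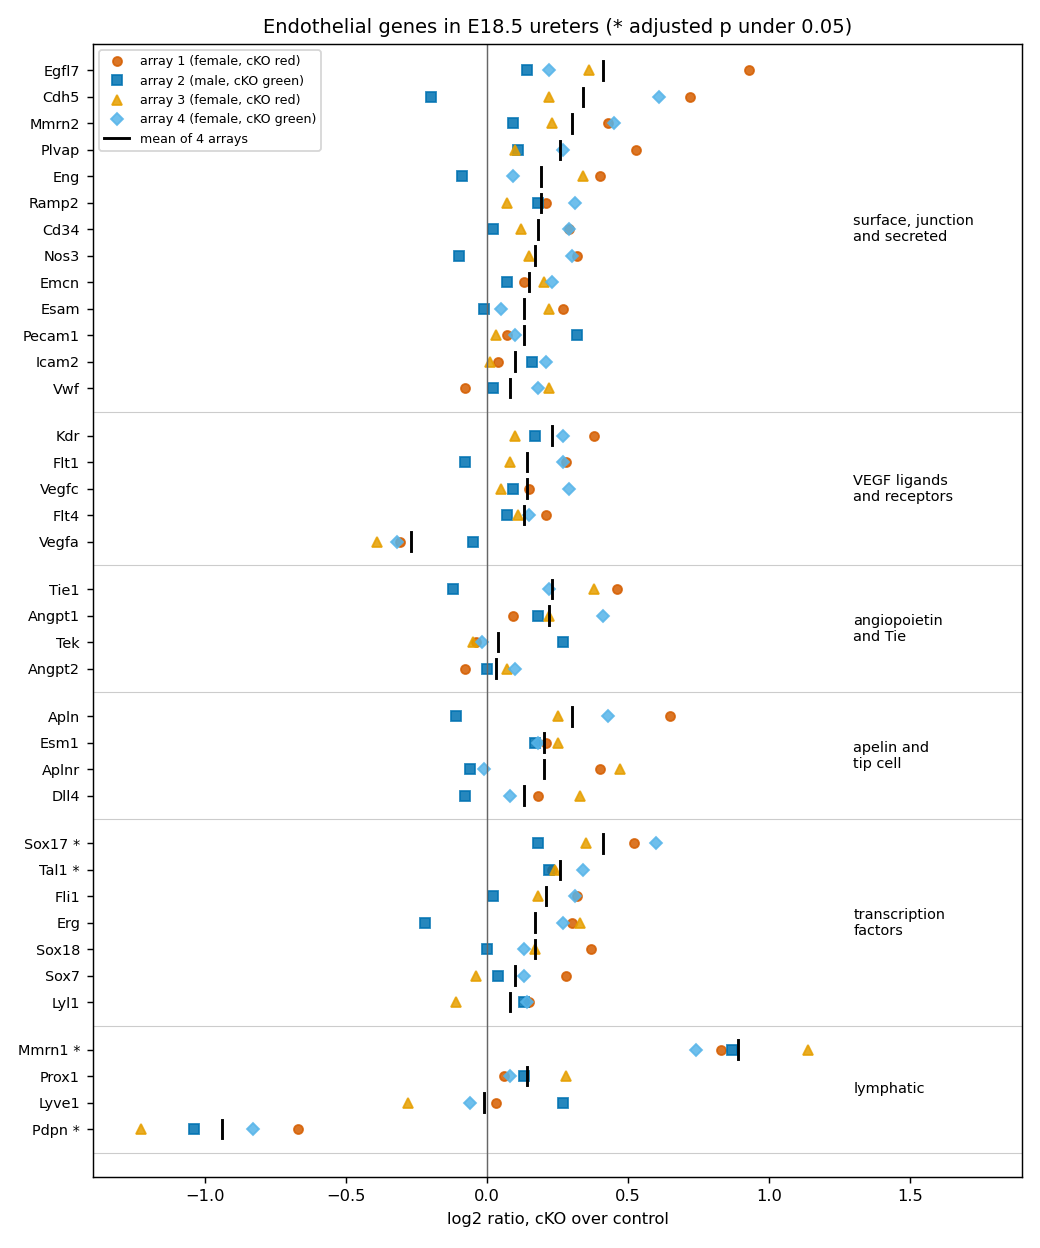
Log2 ratio of cKO over control (x axis) for the 37 endothelial genes (rows, grouped by role), with 1 marker per array and a black bar at the mean of 4 arrays. Most genes lie between 0 and 0.5, Mmrn1 lies at 0.89, Pdpn at -0.94, and the markers of array 2 are often the leftmost.

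The largest rise and the only fall were both among the 4 lymphatic genes. Mmrn1 encodes multimerin, a secreted protein of lymphatic endothelium that platelets also store. Its log2 levels were 9.67, 9.82, 10.02 and 10.33 in cKO ureters and 8.84, 8.95, 8.89 and 9.59 in control ureters. All cKO levels lay above all control levels. The ratio was 0.83, 0.87, 1.14 and 0.74 on arrays 1 to 4, a 1.86-fold rise (log2 0.89 ± 0.17, SD, n = 4; limma SE 0.0713, adjusted p = 0.00293). The probe lies at chr6:60938883-60938942 on the plus strand of mm9, the build of the array files. The other probe of Mmrn1, at chr6:60896017-60896076, was not well above background in either genotype and had a ratio of 0.02 ± 0.11, so the rise rests on 1 probe.

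Pdpn encodes podoplanin, a mucin-type surface protein of lymphatic endothelium that basal epithelium, mesothelium and some fibroblasts also carry. Its log2 levels were 12.51, 12.26, 12.20 and 12.64 in cKO ureters and 13.17, 13.30, 13.43 and 13.48 in control ureters. All cKO levels lay below all control levels. The gene fell 1.92-fold (log2 -0.94 ± 0.25, SD, n = 4; limma SE 0.105, adjusted p = 0.0082). This probe lies at chr4:142857339-142857398 on the minus strand of mm9. The second probe, at chr4:142858329-142859146, gave a log2 ratio of -1.07 ± 0.19 (limma adjusted p = 0.00283 over all probes), so both probes were lower in the cKO.

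Beside the fall of Pdpn stood the epithelial markers. Of the 16 on the list, all of which passed the filter, 9 fell and 0 rose, with a median ratio of -0.60 ± 0.29. Their summed linear level was 268542 to 435202 in cKO ureters and 497107 to 514358 in control ureters, lower in the cKO on 4 of 4 arrays. The largest fall was that of Krt5, a keratin of basal epithelium (7.26-fold, log2 -2.86 ± 0.10; limma adjusted p = 0.000156). Mean ratios were below 0 for 14 of the 16. The other 2 were Krt8, at 0.00 ± 0.36, and Elf3, at 0.28 ± 0.37, and neither was called. Of 7 mesothelial markers 5 passed the filter, with 1 higher, 0 lower and a median ratio of -0.46 ± 0.35. The 1 that rose was Msln, which encodes mesothelin and was 7.14-fold higher in the cKO (log2 2.84 ± 0.17; limma adjusted p = 0.000172). The other 4 that passed the filter had mean ratios below 0 with no call. The sum over all 7 was 112727 to 218517 in cKO ureters and 172799 to 195562 in control ureters, but Upk1b and Krt19, which epithelium also expresses, made up 66.2% to 89.8% of it. Lrrn4 and Bnc1 were not above background. The part of either cell type in the fall of Pdpn was not tested.

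The remaining lymphatic genes showed no call. Lyve1, the hyaluronan receptor of lymphatic endothelium and of some macrophages, had log2 levels of 12.06, 12.59, 12.47 and 12.85 in cKO ureters and 12.04, 12.32, 12.75 and 12.91 in control ureters. Its ratio was 0.03, 0.27, -0.28 and -0.06, with a mean of -0.01 ± 0.23 (limma adjusted p = 0.964). The arrays thus disagreed on its sign. Prox1, the transcription factor that sets lymphatic identity, had a ratio of 0.14 ± 0.10 and was above 0 on 4 of 4 arrays (limma adjusted p = 0.244). Its log2 levels of 6.96 to 7.27 in cKO ureters and 6.68 to 7.21 in control ureters were close to 6.45, the 95th percentile of the levels of probes at background on every array. Of the 4 lymphatic genes, 1 thus rose, 1 fell and 2 did not pass.

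The 300 bases around the RefSeq start sites of the genes with the largest rise and the only fall are shown here, since the ETS factors Erg and Fli1 are among the 37 genes. The bases run from 250 before the start to 50 after it, 5′ to 3′ on the gene's strand, in GRCm38.p6. Capitals mark GGAA, the core that ETS factors bind, or its complement TTCC.
Mmrn1, chr6:60944067-60944366, plus strand: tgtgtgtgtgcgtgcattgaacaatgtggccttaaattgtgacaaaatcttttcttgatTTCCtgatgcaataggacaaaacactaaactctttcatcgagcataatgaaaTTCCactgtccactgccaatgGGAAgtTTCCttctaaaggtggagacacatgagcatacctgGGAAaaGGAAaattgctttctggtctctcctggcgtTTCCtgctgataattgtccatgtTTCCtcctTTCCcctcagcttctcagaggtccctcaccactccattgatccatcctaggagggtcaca
Pdpn, chr4:143299515-143299814, minus strand: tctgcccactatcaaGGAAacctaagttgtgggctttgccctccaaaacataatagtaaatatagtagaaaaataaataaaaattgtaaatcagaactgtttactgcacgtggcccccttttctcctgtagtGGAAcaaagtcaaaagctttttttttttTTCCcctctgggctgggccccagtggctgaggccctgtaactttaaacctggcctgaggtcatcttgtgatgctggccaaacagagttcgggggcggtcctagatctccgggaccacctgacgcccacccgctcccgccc
The Mmrn1 window held 9 matches and the Pdpn window held 3. The RefSeq table had 27 such windows for 20 of the 37 genes, with a median of 4 matches, where all 32851 windows had a median of 3. GGAA on either strand was in 27 of 27 of these windows and in 96% of all windows. A match is a description of letters only.

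The 7 transcription factor genes all had mean ratios above 0, from 0.08 to 0.41 with a median of 0.17. Of these, 2 rose, 0 fell and 5 did not pass. Sox17, a factor of arterial endothelium, had log2 levels of 12.52, 12.28, 12.40 and 12.75 in cKO ureters and 12.01, 12.11, 12.05 and 12.16 in control ureters. All cKO levels lay above all control levels. The ratio was 0.52, 0.18, 0.35 and 0.60, a 1.33-fold rise (log2 0.41 ± 0.19, SD, n = 4; limma adjusted p = 0.0498). The second Sox17 probe gave 0.36 ± 0.17 (limma adjusted p = 0.0455 over all probes), with levels that overlapped. The probes lie at chr1:4481503-4481562 and chr1:4481038-4481097 of mm9, on the minus strand.

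Tal1, a factor of blood and endothelial progenitors that erythroid cells also use, had log2 levels of 9.62, 9.97, 9.97 and 10.21 in cKO ureters and 9.40, 9.75, 9.73 and 9.87 in control ureters. The groups overlapped, but on each array the cKO was higher. The ratio was 0.23, 0.22, 0.24 and 0.34, a 1.19-fold rise (log2 0.26 ± 0.05, SD, n = 4; limma adjusted p = 0.0474; probe at chr4:114744219-114744278, plus strand). Both adjusted p-values lay just under the threshold of 0.05. Adjusted over all probes in place of genes, the probes that stood for Sox17 and Tal1 did not pass (limma adjusted p = 0.0517 and 0.0501). The call of Sox17 was lost without array 1, 3 or 4 (adjusted p 0.195, 0.113 and 0.134) and that of Tal1 without any 1 of arrays 1 to 4 (adjusted p 0.175, 0.0993, 0.155 and 0.196).

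Erythroid cells and megakaryocytes also use Tal1, and their markers were summed. The 13 of 14 erythroid markers that passed had a median ratio of 0.28 ± 0.33, with 1 higher (Hbb-b2) and 0 lower. The sum over all 14 was 565456 to 704135 in cKO ureters and 490706 to 589303 in control ureters. The erythroid medians were 0.51, 0.57, -0.14 and 0.19 on arrays 1 to 4. The Tal1 ratio was 0.23, 0.22, 0.24 and 0.34 on the same arrays. Of the 13 erythroid markers tested, 12 had mean ratios above 0. The erythroid sum was higher in the cKO on 3 of 4 arrays. Of the 12 megakaryocyte and platelet markers 9 passed the filter, with a median ratio of 0.12 ± 0.12 and 7 of 9 mean ratios above 0. Gp1bb, a subunit of the platelet receptor for Vwf, was the only call and fell (log2 -0.25 ± 0.03; limma adjusted p = 0.0456), and Gp1ba, Gp5 and Gp6 were not above background. The sum over all 12 was 15660 to 21147 in cKO ureters and 16687 to 22057 in control ureters, lower in the cKO on 4 of 4 arrays. Pf4 alone, with a log2 ratio of -0.18 ± 0.12 that did not pass, made up 88.1% to 91.9% of that sum, and without it the cKO sum was higher on 2 of 4 arrays. The part of blood cells in the calls of Tal1 and Mmrn1 was not tested.

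The other 5 factors did not pass. Fli1, an ETS factor of endothelium and blood, had a ratio of 0.21 ± 0.14 (limma adjusted p = 0.153), and Sox18, a partner of Sox17 in vessel development, had 0.17 ± 0.15 (adjusted p = 0.179). Erg, an ETS factor that keeps endothelial identity, had 0.30, -0.22, 0.33 and 0.27 on arrays 1 to 4, with log2 levels not far above background. Sox7 had 0.10 ± 0.14 and Lyl1, the close relative of Tal1, had 0.08 ± 0.13.

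The plot of levels shows the 4 called genes next to Vegfa and bright endothelial genes.

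**Figure D2:**
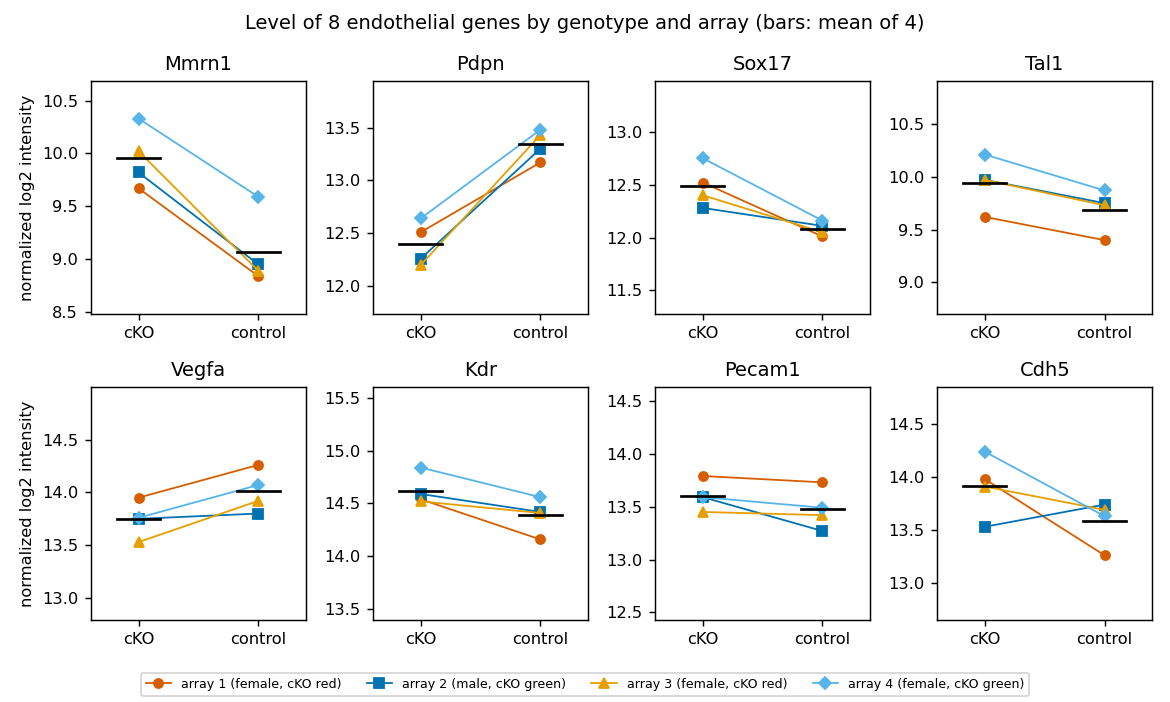
Normalized log2 intensity (y axis) in cKO and control ureters on each array for 8 endothelial genes (panels). Lines join the pair of each array, and black bars are means of 4. The levels of Mmrn1, Sox17 and Pdpn do not overlap between the genotypes, whereas those of Tal1 do.

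Vegfa, the main ligand for blood vessel growth, which epithelium and muscle release, was among the 3 genes below 0. Its log2 levels were 13.95, 13.75, 13.53 and 13.76 in cKO ureters and 14.26, 13.80, 13.92 and 14.07 in control ureters. The groups overlapped, and on each array the cKO was lower. The ratio was -0.31, -0.05, -0.39 and -0.32, with a mean of -0.27 ± 0.15 (limma adjusted p = 0.0764), and a second probe gave -0.14 ± 0.15 (adjusted p over probes = 0.247). Vegfc, the ligand for lymphatic growth, had 0.14 ± 0.10 (adjusted p = 0.234).

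The receptor gene Kdr had log2 levels of 14.54, 14.59, 14.52 and 14.84 in cKO ureters and 14.16, 14.42, 14.41 and 14.56 in control ureters. Its ratio was 0.38, 0.17, 0.10 and 0.27, above 0 on 4 of 4 arrays, with a mean of 0.23 ± 0.12 (limma adjusted p = 0.113, 95% interval 0.06 to 0.40). Flt1, which encodes a VEGF receptor that acts largely as a decoy, had 0.14 ± 0.17 and Flt4, the receptor for Vegfc on lymphatic endothelium, had 0.13 ± 0.06. Neither passed (adjusted p = 0.377 and 0.211). The 5 VEGF genes thus held 0 calls in either direction, with 4 of 5 mean ratios above 0.

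The angiopoietin and Tie group had 0 of 4 genes past the threshold, with a median of 0.13. Tek, the angiopoietin receptor, had log2 levels of 13.21, 12.93, 12.84 and 13.06 in cKO ureters and 13.25, 12.66, 12.89 and 13.07 in control ureters. Its ratio was -0.04, 0.27, -0.05 and -0.02, so only array 2 was above 0. Angpt1, the ligand made by cells around the vessel, had log2 levels of up to 10.34 in cKO ureters and of up to 9.93 in control ureters. All cKO levels lay above all control levels, but the ratio of 0.22 ± 0.13 did not pass (limma adjusted p = 0.107). Angpt2, the ligand that loosens vessels, had 0.03 ± 0.08, and Tie1, the orphan partner of Tek, had 0.23 ± 0.26.

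The apelin pathway and tip cell group had 0 of 4 genes past the threshold. Esm1, a secreted marker of the tip cells of growing sprouts, had ratios of 0.21, 0.17, 0.25 and 0.18, a mean of 0.20 ± 0.03 (limma adjusted p = 0.074). Apln, the apelin ligand, had 0.65, -0.11, 0.25 and 0.43, and its receptor Aplnr had 0.40, -0.06, 0.47 and -0.01. Aplnr was thus high on both arrays with the cKO in red and near 0 on both with the cKO in green, a difference of 0.47 between the dye orientations. Dll4, the Notch ligand of tip cells and arteries, had 0.13 ± 0.17.

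All 13 surface, junction and secreted genes had a mean ratio above 0, from 0.08 to 0.41, and 0 of 13 passed. The median was 0.18, and 8 of 13 were higher in the cKO on all 4 arrays. Cd34, a sialomucin of vessels that some fibroblasts also carry, had log2 levels of 15.67, 15.55, 15.51 and 15.75 in cKO ureters and 15.38, 15.53, 15.39 and 15.46 in control ureters. The cKO was higher on each array, and the ratio was 0.18 ± 0.13 (limma adjusted p = 0.206). Ramp2, the receptor subunit for adrenomedullin, had log2 levels of 15.00, 15.16, 15.05 and 15.26 in cKO ureters and 14.80, 14.98, 14.98 and 14.95 in control ureters. These groups did not overlap, and the ratio of 0.19 ± 0.10 did not pass (limma adjusted p = 0.123).

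None of the junction and adhesion genes passed. Pecam1, an adhesion molecule at endothelial contacts, had log2 levels of 13.79, 13.59, 13.45 and 13.59 in cKO ureters and 13.73, 13.27, 13.42 and 13.49 in control ureters. The groups overlapped. It had ratios of 0.07, 0.32, 0.03 and 0.10, a mean of 0.13 ± 0.13 (limma adjusted p = 0.283, 95% interval -0.02 to 0.28). Cdh5, which encodes VE-cadherin, the endothelial junction protein, had log2 levels of 13.98, 13.53, 13.91 and 14.24 in cKO ureters and 13.26, 13.74, 13.69 and 13.63 in control ureters, which overlapped. Its ratios were 0.72, -0.20, 0.22 and 0.61, a mean of 0.34 ± 0.42 (adjusted p = 0.273, 95% interval -0.06 to 0.73). Cdh5 had its lowest ratio on array 2, where Pecam1 had its highest. Esam, a junction adhesion molecule, had 0.27, -0.01, 0.22 and 0.05, and Icam2, an adhesion molecule for leukocytes, had 0.04, 0.16, 0.01 and 0.21. Emcn, the endomucin of veins and capillaries, had 0.13, 0.07, 0.20 and 0.23, a mean of 0.15 ± 0.07 (adjusted p = 0.182).

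Egfl7, which encodes a secreted protein of the endothelial matrix, had the largest ratio of the group. It had log2 levels of 13.91, 12.50, 12.61 and 13.43 in cKO ureters and 12.98, 12.36, 12.26 and 13.22 in control ureters, a spread within each genotype larger than the difference. Its ratio was 0.93, 0.14, 0.36 and 0.22, with a mean of 0.41 ± 0.36 (limma adjusted p = 0.0789). Without array 3 its adjusted p was 0.026. Mmrn2, the endothelial relative of Mmrn1, had log2 levels of 12.74 to 13.05 in cKO ureters and 12.31 to 12.64 in control ureters with no overlap, and a ratio of 0.30 ± 0.17 (adjusted p = 0.0933). Plvap, the diaphragm protein of fenestrated capillaries, had 0.26 ± 0.20, Eng had 0.19 ± 0.22, Nos3, the endothelial nitric oxide synthase, had 0.17 ± 0.19, and Vwf, the clotting protein of endothelium and platelets, had 0.08 ± 0.14.

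Several genes could be read from more than 1 probe. Of the 37 genes 11 had several probes, 23 in all, and in 10 of these the probes had the same sign. The exception was Flt1, whose other probes had 0.12 ± 0.18 and -0.03 ± 0.21. The 10 include Mmrn1 and Erg, whose second probes did not pass the filter, and Vwf, whose second probe had 0.03 ± 0.11. With 34 of the 37 genes above 0, a shared sign is a weak check. The plot of probes sets the probes of each gene side by side. For 14 of the 37 genes the difference between dye orientations was larger than the mean ratio, with the largest at 0.47, and the median size of that difference was 0.12 against 0.11 for all genes.

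**Figure D3:**
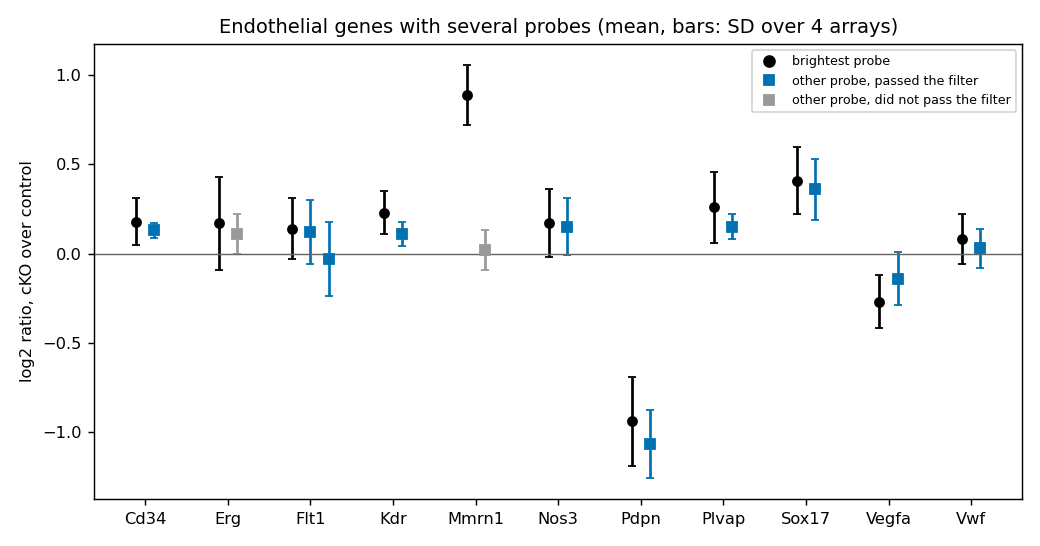
Mean log2 ratio of cKO over control with its SD over 4 arrays (y axis) for each probe of the 11 endothelial genes with several probes (x axis). Black marks the brightest probe and grey a probe that did not pass the filter. Both Pdpn probes lie near -1.07 and -0.94, both Sox17 probes lie above 0, and the dim second probe of Mmrn1 lies at 0.02.

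A wider list held other endothelial genes, receptors, ligands and lymphatic genes. Of the 55 tested, 3 rose (Stab2, Vcam1 and Pgf), 0 fell and 52 did not pass by limma, with 19 higher and 2 lower at an unadjusted p of 0.05. The median was 0.12 ± 0.06, and 42 of 55 mean ratios were above 0. Stab2, a scavenger receptor of sinusoidal and lymphatic endothelium, had ratios of 1.00, 0.71, 1.05 and 1.05, a 1.93-fold rise (limma adjusted p = 0.00263). Its log2 levels were 10.18, 10.37, 10.38 and 10.77 in cKO ureters and 9.18, 9.66, 9.33 and 9.72 in control ureters, with no overlap. Vcam1, an adhesion molecule of activated endothelium and of mesenchyme, rose by 0.46 ± 0.25 (adjusted p = 0.0286), and Pgf, the placental growth factor that binds Flt1, rose by 0.36 ± 0.13 (adjusted p = 0.0379). Vcam1 lost its call without array 1, 3 or 4 (adjusted p 0.112, 0.102 and 0.072), and so did Pgf (adjusted p 0.138, 0.129 and 0.126). Neither passed with the deposited value table (limma adjusted p = 0.0874 for Vcam1 and 0.0897 for Pgf). Taken as the mean of all its probes, Stab2 had a smaller log2 ratio of 0.73 (limma adjusted p = 0.00349).

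Sinusoidal endothelium lines the vessels of the liver, and hepatocyte markers differed between the genotypes. Of 14 hepatocyte markers, all of which passed the filter, 6 rose and 0 fell, with a median ratio of 1.62 ± 0.94. The levels of the genotypes did not overlap, with the cKO higher, for 1 of the 14, beside 3.67% of all genes. Their summed level was 40787 to 297449 in cKO ureters and 37780 to 72477 in control ureters, higher in the cKO on 3 of 4 arrays. Trf alone made up 17.9% to 65.7% of that sum, and without it the cKO sum was higher on 4 of 4 arrays. The hepatocyte medians were 2.10, 2.61, 1.32 and 0.47 on arrays 1 to 4. On the same arrays Stab2 had ratios of 1.00, 0.71, 1.05 and 1.05, and Mmrn1 had 0.83, 0.87, 1.14 and 0.74. Adrenal cortex, the tissue of a gland near the kidney, also had markers that differed. Of its 8 markers, all of which passed the filter, 2 rose and 0 fell, 7 had mean ratios above 0, and the median was 0.26 ± 0.18. Those that rose were the steroid enzyme genes Hsd3b1 (3.59-fold, log2 1.84 ± 0.73; limma adjusted p = 0.0206) and Cyp11b1 (1.92-fold, log2 0.94 ± 0.62; adjusted p = 0.0229). The adrenal medians were 0.56, 0.15, 0.22 and 0.24 on arrays 1 to 4, highest on array 1 and lowest on array 2, as were the medians of the 37 endothelial genes. This was not particular to adrenal markers. The fibroblast medians (0.24, -0.04, 0.08 and -0.02) were also highest on array 1 and lowest on array 2. The epithelial medians (-0.99, -0.30, -0.54 and -0.75) were lowest on array 1 and highest on array 2. The sum over all 8 was 25969 to 30241 in cKO ureters and 26324 to 30882 in control ureters, higher in the cKO on 0 of 4 arrays. Fdx1, a gene of many tissues, made up 86.3% to 94.2% of that sum. Without Fdx1 the sum was higher in the cKO on 4 of 4 arrays. The parts of liver and adrenal cells in the endothelial results were not tested.

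Adrenomedullin acts on endothelium through the products of Ramp2 and Calcrl, and its gene fell while neither receptor gene passed. Adm, the ligand, had ratios of -1.42, -1.26, -1.54 and -0.72 and fell 2.35-fold (log2 -1.24 ± 0.36; limma adjusted p = 0.00293). Its log2 levels were 10.83 to 11.52 in cKO ureters and 12.11 to 12.44 in control ureters, with no overlap. Calcrl, the receptor, had -0.04 ± 0.07 (adjusted p = 0.722). Hypoxia-response genes, with Adm among them, had a median of 0.09 ± 0.16, with 1 of 19 higher (Egln3, 0.59 ± 0.36; adjusted p = 0.0446) and 1 lower (Adm).

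Markers of other cells of the ureter wall were set beside the endothelial genes. The 12 smooth muscle markers had a median of 0.18 ± 0.11, all above 0 and none called. The 11 fibroblast markers had 0.10 ± 0.13 with none called. The 11 pericyte markers had 0.11 ± 0.09, with Ndufa4l2 higher and Rgs5 1.86-fold lower (log2 -0.90 ± 0.23; limma adjusted p = 0.00699). The 12 macrophage markers had -0.10 ± 0.10 with none called. The summed level of the 37 endothelial genes was 283068 to 334059 in cKO ureters and 257629 to 290856 in control ureters, and that of smooth muscle was 963296 to 1047296 in cKO ureters and 789709 to 957811 in control ureters, both higher in the cKO on 4 of 4 arrays. With the epithelial sum lower, the parts of these cell types in the small endothelial ratios were not tested.

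**Figure D4:**
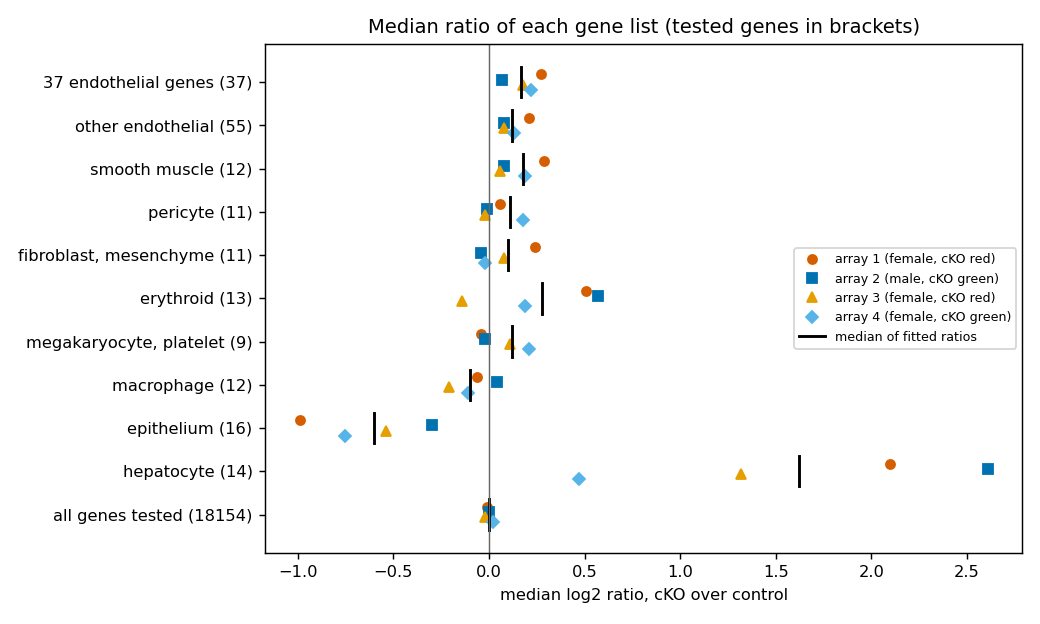
Median log2 ratio of cKO over control (x axis) for the 37 endothelial genes, the wider endothelial list and the marker lists of other cells (rows). Markers are arrays, black bars are medians of the fitted ratios, and the last row holds all genes tested. The endothelial medians of 0.17 and 0.12 lie near that of smooth muscle at 0.18, epithelium lies at -0.60 and hepatocytes at 1.62.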

How the data were processed

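Per the labels' protocols, 200 ng of total RNA was amplified in 1 round, and the product was labelled green (AlexaFluor555) or red (AlexaFluor647). The deposited scanner files hold spot intensity on a linear scale and a log10 ratio of red over green, which the authors obtained with Agilent Feature Extraction, version 10.7.3.1, per the submitters' processing notes. The deposited value table holds log2 ratios with a median of 0 in every column. Its scale and direction, cKO over control, were found by setting it against the scanner values, and the sources used here do not say how the authors treated dim probes in it. Per the file headers, the 4 arrays share 1 slide and 1 scan, so neither could be tested as a batch.

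Intensities were corrected by normexp (offset 50) and loess, with control spots at weight 0. Spots flagged as outliers in the files (3.04% to 3.58%) were left out, and spots of a probe were averaged. Levels are log2 intensities after Aquantile normalization between arrays. The sums and shares of a list add linear levels over different probes, so they also depend on how brightly each probe reads. Apart from these, the choice of the brightest probes and the level at background, levels are not set against those of another probe. A gene was tested where its brightest probe was well above background in over 0.5 of its spots on 4 of 4 arrays in at least 1 genotype. Ratios were fitted with limma 3.58.1 in R 4.3.3, with a dye term. The residual degrees of freedom were 2, to which the prior adds. Benjamini-Hochberg adjustment ran over all 18154 genes, with a threshold of 0.05. Errors are SDs over 4 arrays, whose number limits the precision, and they include the difference between dye orientations, which the p-values do not. The fit was tested on simulated data with known changes, with noise set below the observed SD. Those changes were all larger than the mean ratio of any listed endothelial gene, so smaller ones were not covered. The error of a list's median is the SD of its 4 per-array medians. Names were updated through RefSeq (GRCm38.p6), which also gave the promoter windows, and probe positions are those of the files (mm9).

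The genes and lists were chosen with earlier results of these data known. Values on every array are given for genes past the threshold, the 10 with the brightest probe and those over 1.4-fold either way, and for other lists up to 6 genes past the threshold or the 2 brightest, not all of which are named. The ratios pair the genotypes by array, since each array held a cKO and a control RNA. Alternatives changed the background correction, the normalization, the filter, the probe rule, the dye term and the pairing, and left out each array in turn.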

Additional observations from a re-analysis of the deposited data

Results flagged for a closer look

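In 4 of the 37 genes, 1 array stood apart from the other 3 by Dixon's criterion, whose nominal rate is about 1 in 20. That rate need not hold here, since the arrays differ in dye orientation. The share over all genes tested is not given, so an excess among the 37 cannot be read from this count. The log2 ratio of Tek was 0.27 on array 2, the male pair, against -0.05 to -0.02 on the others. The ratio of Erg was -0.22 on array 2, against 0.27 to 0.33 on the others, from a dim probe. The ratio of Lyl1 was -0.11 on array 3, against 0.13 to 0.15 on the others. The ratio of Tal1 was 0.34 on array 4, against 0.22 to 0.24 on the others, all of them higher in the cKO. Array 2 thus stood apart in both Tek and Erg, in opposite directions.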

How the results depend on the processing

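Over 13 alternatives, 0 results of the 37 genes that passed in either fit turned their sign. The members' median stayed between 0.13 and 0.21. Pdpn passed in 13 of 13 (log2 -1.08 to -0.80, limma adjusted p 0.000337 to 0.0396) and Mmrn1 in 12 of 13 (0.46 to 1.03), the exception being separate channels without a replicate block (adjusted p = 0.0851). The value of 0.46 is the mean with its dim probe. Sox17 and Tal1 each passed in 5 of 13 (adjusted p 0.00724 to 0.195 and 0.0259 to 0.633), so these calls depend on the processing, and the cause was not tested.

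Members called higher numbered 3. The count was 1 with Agilent's processed signals, 1 with the deposited value table, 1 with median centring, 12 with the array as a replicate block in separate channels (intra-spot correlation 0.741) and 0 without that block. With the block 2 were lower, Pdpn and Vegfa, in place of 1. Leaving out each array gave 1 to 2 higher, with Egfl7 among them without array 3. The block pairs the channels of an array, which the ratios already do.

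Over all genes, 529 rose and 1021 fell. Each total given here is out of 18154 genes tested, and the counts of members called are out of 37. Agilent's processed signals gave 471 higher and 865 lower over all genes, and median centring gave 474 and 1054. The deposited table gave 260 and 597, the block 1228 and 1721, no block 124 and 440, and leaving out an array 277 to 358 and 554 to 767 (277 without array 1, 287 without 3 and 297 without 4). Other endothelial genes called higher numbered 3, with 1 for the deposited table, 5 without a dye term, 11 with the block, 1 without it, and 1 to 3 without an array (1 without array 1 or 4). Their count called lower was 0, with 1 for median centring, 1 without a dye term and 2 with the block. Array number and the dim probes of Prox1, Erg and Flt4 limit what could be called.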
